A study of Mus musculus with 20 samples.

Results

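The nuclear genes for subunits of the mitochondrial respiratory chain were followed in inguinal subcutaneous white adipose tissue (iWAT) of mice with and without adipocyte Tmem120a on low-fat and high-fat diets. The genes were taken by symbol from the NCBIM37 annotation, as protein-coding nuclear genes whose names start with Ndufa, Ndufb, Ndufc, Ndufs, Ndufv, Uqcr, Atp5, Cox4, Cox5, Cox6, Cox7 or Cox8, together with Sdha to Sdhd. Assembly factors and the muscle and brown fat forms Cox6a2, Cox7a1 and Cox8b were left out. The choice gave 85 genes of 36611 in the table, of which 39 were counted with complex I, 4 with complex II, 8 with complex III, 16 with complex IV and 18 with complex V. 3 of them, Atp5s, Atp5sl and Cox4nb, are taken in by their names although their proteins are not structural subunits of the complexes.

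The respiratory chain passes electrons from NADH, through complex I, and from succinate, through complex II, to ubiquinone, complex III and cytochrome c, and complex IV hands them to oxygen. Complexes I, III and IV pump protons out of the mitochondrial matrix, and complex V, the ATP synthase, uses their return to make ATP. Most subunits are encoded in the nucleus and imported, while a small set, with the core proton-pumping subunits among them, is encoded by the mitochondrial genome. White adipocytes hold far fewer mitochondria than brown ones, and their respiratory chain serves fatty acid synthesis, lipid turnover and adipokine secretion as well as ATP supply.

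RNA was sequenced from 20 libraries of iWAT from female C57BL/6 mice aged 6 months, 5 in each of 4 groups. Control littermates were Tmem120a fl/fl mice without Cre, labelled wild type, and Ad-Tmem120a-/- mice carried the same floxed alleles with Cre driven by the adiponectin promoter, so that other cells of the tissue keep Tmem120a. Per the methods of the study, the floxed line was on C57BL/6 N Tac and the Cre line on C57BL/6 J, so the background mixes these substrains. For 15 weeks mice of both genotypes ate food with 10.5% of kcal from fat (low-fat diet, LFD) or with 58% (high-fat diet, HFD). Per the methods, the carbohydrate was mainly corn starch in LFD and mainly sucrose in HFD, so diet comparisons do not isolate fat content. The labels number the libraries separately, and p-values measure the spread between them. In bulk tissue, fewer cells of a type and less RNA per cell cannot be told apart.

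Libraries held between 54605101 and 92387737 estimated counts. Tmem120a itself lay between 57.9 and 131.9 TPM (transcript abundance scaled by length and to 1 fixed total per library) in control LFD libraries and between 21.5 and 74.0 in Ad-Tmem120a-/- LFD libraries. On HFD it lay between 83.3 and 195.7 TPM in control and between 29.5 and 89.7 in Ad-Tmem120a-/- libraries, so the genotypes overlapped on both diets. Per the methods only some exons are floxed, and the gene sum counts transcripts over all exons. It therefore does not measure how complete the knockout was. White adipocyte markers were abundant in every library, with a summed level of 13 genes between 17766 and 36667 TPM.

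The subunit genes spanned a wide range of levels (plot of levels by complex). Of the 85 genes, 80 had a mean of at least 0.5 TPM and were tested. Among them 38 had a mean over 100 TPM and 2, Uqcrb and Cox6c, over 1000 TPM. Uqcrb, which encodes a small ubiquinone-binding subunit of complex III, had a mean of 1843 TPM and made up 67.6% of the summed complex III level. Cox6c, a small membrane subunit of complex IV, had a mean of 1274 TPM and 39.2% of the complex IV sum. In complex I the highest gene was Ndufs5, an accessory subunit, at 483.8 TPM, and in complex V it was Atp5b, the catalytic beta subunit, at 490.0 TPM.

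**Figure D1:**
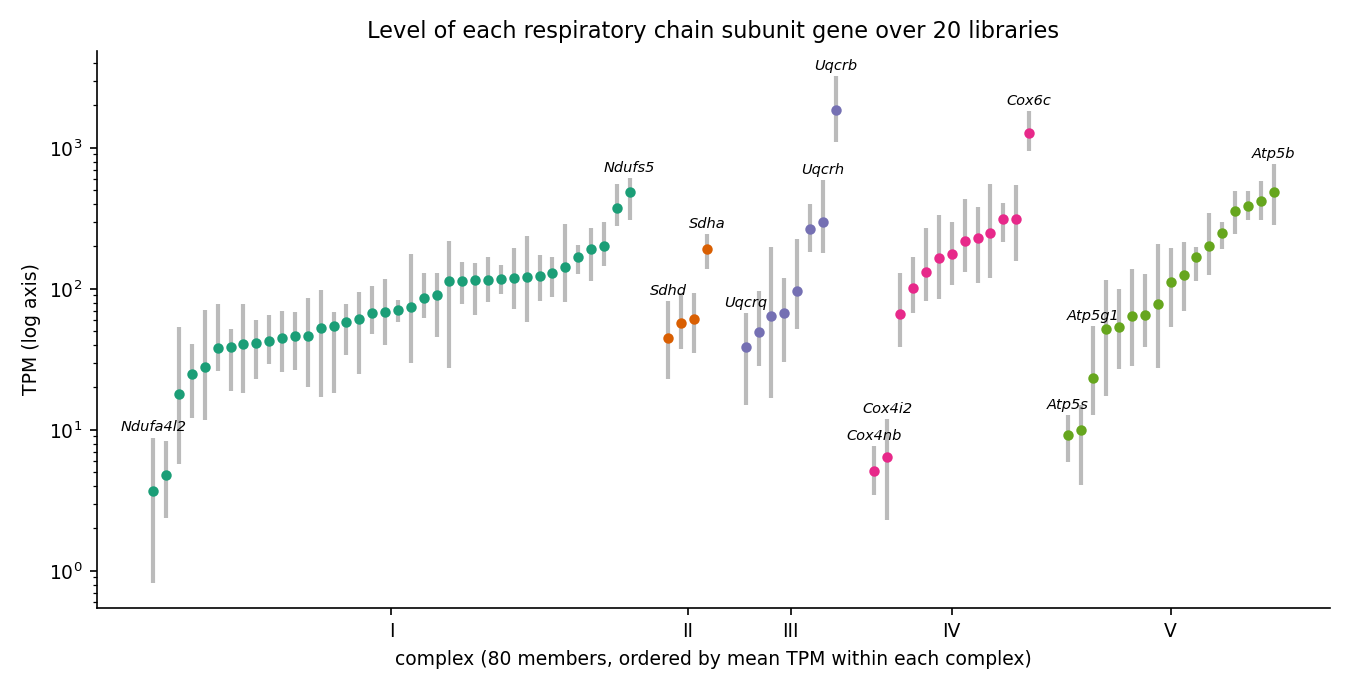
Level of each of the 80 tested subunit genes in TPM on a log axis, grouped by complex and ordered by mean. Points are means over 20 libraries and grey lines run from the lowest to the highest library, and Uqcrb (1843 TPM) and Cox6c (1274 TPM) stand above all others.

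Subunits that work in the same complex were thus not present in equal RNA amounts. The median of the member means was 69.7 TPM in complex I, 58.9 in complex II, 82.3 in complex III, 177.5 in complex IV and 111.6 in complex V. The 7 catalytic core genes of complex I, which carry the flavin and the iron-sulphur clusters, had a median of 68.7 TPM and a range from 27.8 to 90.2. The 31 tested genes of its other subunits had a median of 74.4 TPM and a far wider range, from 3.70 for Ndufa4l2 to 483.8 for Ndufs5. In complex II, Sdha, the flavoprotein that oxidises succinate, had 192.7 TPM, against 57.0 for the iron-sulphur subunit Sdhb and 60.9 and 45.2 for the membrane anchors Sdhc and Sdhd. The lowest gene of complex III was Uqcrq at 38.6 TPM. The lowest tested genes of complexes IV and V by the symbol rule were Cox4nb, now known as a subunit of a membrane protein insertion complex of the endoplasmic reticulum, at 5.15 TPM, and Atp5s at 9.21 TPM.

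Isoform families were dominated by 1 form each or shared. Cox4i1, the common form of complex IV subunit 4, had a mean of 314.8 TPM over all libraries against 6.38 for Cox4i2, the form best known from lung and from cells low in oxygen. Ndufa4, which carries a complex I name and is a subunit of complex IV, had 375.2 TPM against 3.70 for its paralogue Ndufa4l2, a gene known to be induced when oxygen is low. The 3 genes that encode an identical mature c-ring subunit of ATP synthase shared the load. In control LFD libraries Atp5g3 made up 52.9% ± 8.56 (SD, n = 5) of their summed TPM, Atp5g2 35.0% ± 8.85 and Atp5g1 12.1% ± 2.17. In Ad-Tmem120a-/- HFD libraries the shares were 61.2% ± 7.39, 29.0% ± 9.63 and 9.80% ± 2.95, and the ranges of the groups overlapped. Cox6a1 had a mean of 165.9 TPM, Cox6b1 227.9, Cox7a2 132.0, Cox7a2l 311.9, Cox7b 101.9 and Cox8a 250.4. The 5 genes under 0.5 TPM were Cox6b2 at 0.205 TPM, Cox7b2 and Cox8c, which were at 0 in every library, Atp5l-ps1, named as a pseudogene, at 0.00567 TPM and a second gene named Ndufb8 at 0.302 TPM. Cox6b2, Cox7b2 and Cox8c are known as testis forms.

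Gene sums took in transcripts that are not annotated to make the protein. Over all members, 10.8% of the summed TPM was on such transcripts, and in 9 tested members they took over 50%. For Atp5f1, a stator subunit of ATP synthase, 99.3% was on transcripts of other types. For Ndufb4 the value was 91.1%. Of the 80 tested members, 22 had at least 1 other gene in the table with a transcript that matched their coding sequence at 95% identity or more over at least 80% of its length, and 26 of the 33 copies were annotated as pseudogenes. In 4 of these, Cox7c, Ndufb4, Ndufa12 and Atp5g1, the copies held over 10% of the summed level of gene and copies, with shares of 82.8%, 80.6%, 76.4% and 38.3%, so levels of these genes are uncertain. The copies of Uqcrb held 0.324% and that of Ndufs5 0.451%.

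Promoters of the members were read from RefSeq (build GRCm38.p6) as windows from 250 bases before to 50 bases after the start of each gene. Of 84 member symbols, 68 had an entry, 3 of them under a newer symbol. Among those without an entry were Ndufa2, Ndufa4l2, Ndufb9, Ndufs1, Sdhc, Uqcrb, Uqcrc2, Uqcrq, Cox4i1, Cox4i2, Cox4nb, Cox6c, Cox8c, Atp5a1 and Atp5l-ps1. Motifs of 4 factors long studied at respiratory chain genes were searched on both strands. GCGCANGCG, the core of the NRF1 site, was in 19 of the 68 windows (27.9%) against 6.47% of all 27025 promoter windows of the same length. CCGGAAG, read by ETS factors such as GABP, was in 15 (22.1%) against 9.12%. AAGATGGCG, the long YY1 motif, was in 7 (10.3%) against 1.49%, and it can overlap the ETS motif, since that ends in the letters with which it begins. TCAAGGTCA, the site of oestrogen-related receptors, was in 2, Sdhd and Atp5g3 (2.94%), against 0.407%. At least 1 of the 4 was in 34 member windows (50%) and in 15.7% of all windows. All windows were taken whether or not the gene is expressed in iWAT, and their base composition was not matched to that of the members. A match is a description of the letters and not of binding. Of 3 members taken up below, the 250 bases before the start are printed with matches in capitals. Sdhd lies on the minus strand at chr9:50603850-50604099, Ndufs5 on the minus strand at chr4:123718187-123718436 and Uqcrh on the minus strand at chr4:116075071-116075320.
Sdhd: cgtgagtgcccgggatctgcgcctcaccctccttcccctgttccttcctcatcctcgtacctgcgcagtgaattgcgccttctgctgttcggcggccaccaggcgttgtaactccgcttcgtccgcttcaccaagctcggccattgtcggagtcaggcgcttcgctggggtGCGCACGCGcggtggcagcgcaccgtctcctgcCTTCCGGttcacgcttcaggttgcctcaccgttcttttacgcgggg
Ndufs5: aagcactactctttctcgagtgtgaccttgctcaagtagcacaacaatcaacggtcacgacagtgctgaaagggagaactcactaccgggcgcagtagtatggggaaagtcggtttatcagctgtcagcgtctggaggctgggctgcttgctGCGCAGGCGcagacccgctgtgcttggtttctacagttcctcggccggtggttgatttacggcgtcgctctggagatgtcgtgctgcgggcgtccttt
Uqcrh: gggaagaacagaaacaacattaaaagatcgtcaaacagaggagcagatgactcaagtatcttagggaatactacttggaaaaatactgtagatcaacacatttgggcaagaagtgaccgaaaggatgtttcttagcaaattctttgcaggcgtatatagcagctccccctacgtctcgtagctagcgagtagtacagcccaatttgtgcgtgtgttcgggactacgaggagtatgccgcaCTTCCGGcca
The capitals of Sdhd are an NRF1 match, from 70 to 79 bases before the start, followed by an ETS match on the opposite strand, from 39 to 46 bases before it, and its receptor match lies outside the printed bases. Ndufs5 holds an NRF1 match between 89 and 98 bases before its start, and Uqcrh an ETS match on the opposite strand, which ends 3 bases before its start.

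Whether loss of Tmem120a from adipocytes changed the respiratory chain genes was asked first on HFD. No subunit gene was called between genotypes on HFD, in a test that called 1 of all 15228 genes. The summed level of all 85 genes was 13665 ± 1221 TPM (SD, n = 5) in Ad-Tmem120a-/- libraries and 12672 ± 1370 TPM in control libraries. By edgeR's quasi-likelihood test 0 of 80 members were called at a Benjamini-Hochberg adjusted p under 0.1, against 0.00657% of all 15228 genes tested. At an unadjusted p under 0.05, 1 member, Ndufb4, passed, against 4.66% of all genes. The count was 5 without Ad-Tmem120a-/- HFD replicate 21 (beside 1455 of 15245 genes) and 0 without replicate 18 (beside 529 of 15193). DESeq2 and limma on log2(TPM + 1) also called 0 members, beside 100 and 3 of all genes. The fitted changes were split, with 44 members higher and 36 lower, and their median log2 fold change was 0.03 against 0.01 over all genes. That direction turned with single libraries. It was 0.17, with 71 of 80 higher, without control HFD replicate 11, and -0.08, with 53 lower, without Ad-Tmem120a-/- HFD replicate 17. No member had groups that did not overlap in TPM, against 0.538% of genes with higher and 0.151% with lower groups. All 15 muscle fibre markers (median log2 fold change 5.10) had higher fitted levels in Ad-Tmem120a-/- HFD libraries, with 0 called by edgeR. All 8 brown and beige markers were higher as well (median 1.135), with 0 called. Of 13 white adipocyte markers 11 were lower (median -0.14), with 0 called. The part of these cells in the levels of the subunit genes was not tested.

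The only complex whose sum moved by more than the others was complex III, and there through 1 gene. Its summed level was 3220 ± 551 TPM (SD, n = 5) in Ad-Tmem120a-/- HFD and 2516 ± 329 TPM in control HFD libraries. Without Uqcrb the values were 835 ± 235 and 813 ± 202 TPM. Uqcrb had 2138, 3230, 2506, 2648 and 1405 TPM in the Ad-Tmem120a-/- HFD libraries and 1097, 1520, 1621, 1864 and 2412 TPM in the control HFD libraries. The Ad-Tmem120a-/- values were mostly higher, and the groups overlapped. The fitted log2 fold change of Uqcrb was 0.48 ± 0.24 (SE), with an edgeR adjusted p of 0.999, and the exact permutation test on log2(TPM + 1) gave p = 0.119 (two-sided). Sums of the other complexes differed by log2 ratios between 0.02 and 0.21.

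On LFD most subunit genes had lower fitted levels in Ad-Tmem120a-/- iWAT, and none was called. The summed level was 11879 ± 2046 TPM (SD, n = 5) against 13547 ± 2755 TPM in control, and the groups overlapped. Of 80 members, 78 had a lower fitted level in Ad-Tmem120a-/- libraries, all 38 of complex I, all 4 of complex II and all 13 of complex IV among them. The members vary together from library to library, as given below, so this agreement in direction is not 80 separate results. The median log2 fold change was -0.38, against -0.02 over all 15717 genes tested. By complex it was -0.38 for I, -0.32 for II, -0.43 for III, -0.43 for IV and -0.36 for V. The edgeR test called 0 members (adjusted p under 0.1), against 0.00636% of all genes. DESeq2 and limma on log2(TPM + 1) called 0 members as well, beside 17 and 2 of all genes. At an unadjusted p under 0.05, 3 members, Cox6c, Atp5j and Ndufb10, passed, against 5.11% of all genes. That count rested on single libraries. It was 25 of 80 without Ad-Tmem120a-/- LFD replicate 7 (beside 1064 of 15538 genes). It was 16 without control LFD replicate 1 (842 of 15739) and 12 without replicate 2 (704 of 15720). It was 0 without control LFD replicate 3 (510 of 15754) or 4 (776 of 15727) or Ad-Tmem120a-/- LFD replicate 8 (847 of 15698). It was 1 without Ad-Tmem120a-/- LFD replicate 9 (632 of 15664) or 10 (720 of 15735). With the log2 level of 7SK RNA, described below, as a covariate, the count was 25 (beside 1438 of 15717 genes). The median change of the members was then -0.23 in place of -0.38, with 78 lower. No member had groups that did not overlap, against 1.3% of genes with higher and 0.102% with lower groups.

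The size of this shift depended on single libraries, in both directions. The summed member level was 18060 TPM in control LFD replicate 4 and 10996, 11684, 13585 and 13407 TPM in the other control LFD libraries. In Ad-Tmem120a-/- LFD libraries it was 10784, 15435, 11726, 11045 and 10404 TPM. Without control LFD replicate 4, the median change of the members was -0.15, with 69 of 80 lower. Without Ad-Tmem120a-/- LFD replicate 7, the highest of its group, it was -0.53, with 78 lower, and without each of the other libraries it lay between -0.49 and -0.30. White adipocyte markers were also lower in Ad-Tmem120a-/- LFD libraries, with a summed level of 20498 ± 2530 TPM (SD, n = 5) against 24190 ± 2611 TPM, a log2 ratio of -0.24. All 13 of these markers had lower fitted levels, with a median of -0.27 and 0 called by edgeR. All 8 brown and beige markers (median -0.80) and all 15 muscle fibre markers (median -0.90) were lower as well, with 0 called. Of 10 lymphocyte markers 9 were higher (median 0.35), with 0 called. The part of these cells in the shift of the subunit genes was not tested. On the TPM scale, where 76 members were lower, the median log2 ratio of group means was -0.26 against 0.08 over all genes. Cox6c was among the lower genes, with 1335, 1310, 1562, 1814 and 1405 TPM in control LFD and 1298, 1423, 1192, 1092 and 1162 TPM in Ad-Tmem120a-/- LFD libraries. A single Ad-Tmem120a-/- library lay above the lowest control, and the fitted log2 fold change was -0.39 ± 0.17 (SE, edgeR adjusted p = 0.929).

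The catalytic subunits were also lower in Ad-Tmem120a-/- libraries on LFD by their fitted levels, and none was called by edgeR at an adjusted p under 0.1. Of the 7 core genes of complex I, all had lower fitted levels in Ad-Tmem120a-/- LFD libraries, from -0.24 ± 0.14 (SE) for Ndufs1 to -0.56 ± 0.44 for Ndufs8, which carries iron-sulphur clusters close to the quinone site. Uqcrfs1, the Rieske iron-sulphur protein of complex III, averaged 60.0 TPM ± 23.1 (SD, n = 5) on LFD in control libraries against 47.65 ± 18.8 in Ad-Tmem120a-/- libraries, with a fitted log2 fold change of -0.46 ± 0.30 (SE). For the ATP synthase head, Atp5a1 gave -0.31 ± 0.20, Atp5b -0.45 ± 0.28 and Atp5c1, the rotating gamma subunit, -0.21 ± 0.13. On HFD the same 3 genes gave 0.10 ± 0.15, -0.09 ± 0.23 and 0.07 ± 0.11.

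Ndufb4, an accessory subunit of the complex I membrane arm, was low in Ad-Tmem120a-/- libraries on both diets, and was picked out after its values were seen. It had 66.6, 50.5, 55.2, 66.6 and 66.8 TPM in control LFD and 48.05, 47.4, 52.4, 18.2 and 40.8 TPM in Ad-Tmem120a-/- LFD libraries. On HFD it had 68.7, 68.75, 63.3, 66.2 and 61.1 TPM in control and 52.5, 35.7, 62.2, 54.05 and 39.3 TPM in Ad-Tmem120a-/- libraries. A single Ad-Tmem120a-/- value exceeded the lowest control value on each diet. The exact permutation p was 0.0159 (two-sided) on each diet, and the fitted log2 fold changes were -0.68 ± 0.32 (SE, edgeR adjusted p = 0.929) on LFD and -0.43 ± 0.18 (adjusted p = 0.999) on HFD. Most of its level was on transcripts of other types and its copies held 80.6% of the summed level of gene and copies, as given above, so its value is uncertain.

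**Figure D2:**
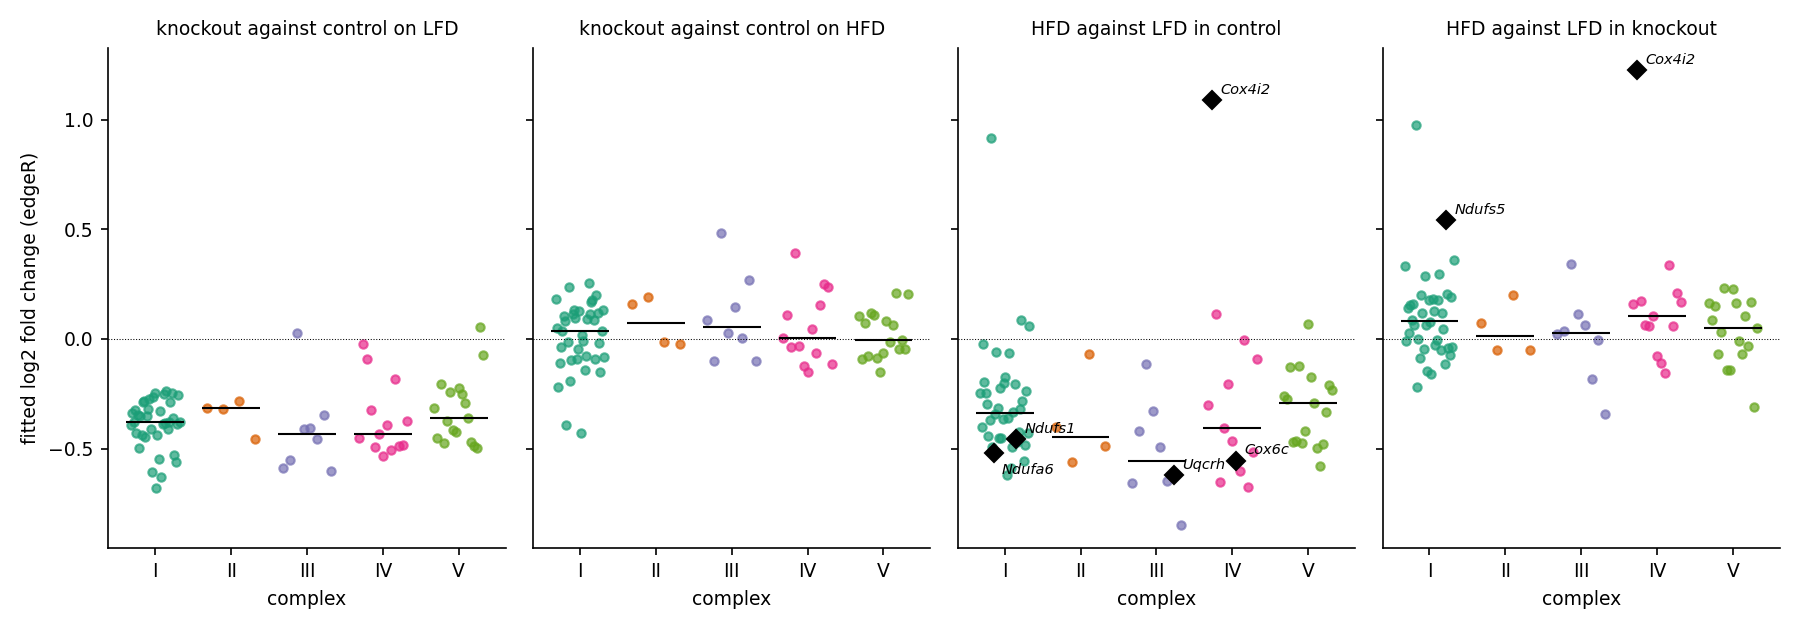
Fitted log2 fold change (edgeR) of the 80 tested subunit genes by complex, in the 4 pairwise comparisons. Each point is a gene, knockout stands for Ad-Tmem120a-/-, bars are medians of each complex, and black diamonds are genes called at an adjusted p under 0.1, which were 0, 0, 5 and 2 genes from left to right.

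The diet comparison in control mice asked how these genes differed between HFD and LFD without the knockout. In control iWAT on HFD 1 subunit gene rose and 4 fell. Cox4i2 rose, while Ndufs1, the largest iron-sulphur subunit of complex I, Ndufa6, an accessory subunit at the matrix arm, Cox6c, and Uqcrh, the hinge protein that docks cytochrome c on complex III, fell. These 5 of 80 members stood against 9.32% of all 15311 genes tested, with 4.42% called higher and 4.9% called lower, so the share called was near the background. The direction was more one-sided, though the members vary together from library to library, as given below. Of 80 members, 74 had a lower fitted level on HFD, with a median log2 fold change of -0.36 against -0.04 over all genes, and by complex it was -0.34 for I, -0.45 for II, -0.56 for III, -0.41 for IV and -0.29 for V.

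Cox4i2 lies at chromosome 2, 152579909 to 152590773 (NCBIM37). It had 2.30, 4.97, 4.08, 3.66 and 2.425 TPM in control LFD libraries and 8.16, 9.395, 11.4, 4.945 and 9.64 TPM in control HFD libraries. All but 1 of the HFD values lay above every LFD value. The fitted log2 fold change was 1.09 ± 0.28 (SE, edgeR adjusted p = 0.0510), and the exact permutation test gave p = 0.0159 (two-sided). The call was lost without control LFD replicate 5, or without control HFD replicate 12, 13 or 15, where adjusted p lay between 0.102 and 0.117, and it was made under all 10 other fits, with adjusted p between 0.00397 and 0.0642.

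Ndufs1 (chromosome 1, 63190170 to 63223396) had 70.9, 67.5, 76.2, 83.9 and 77.7 TPM on LFD and 71.4, 71.6, 64.9, 57.9 and 61.7 TPM on HFD. The groups overlapped, and the fitted log2 fold change was -0.46 ± 0.13 (SE, edgeR adjusted p = 0.0619). Ndufa6 (chromosome 15, 82180569 to 82184721) had 186.9, 175.7, 173.1, 205.0 and 173.4 TPM on LFD and 127.5, 143.2, 137.0, 163.9 and 172.4 TPM on HFD. It was the only member whose diet groups did not overlap in control mice, against 1.46% of genes with lower and 8.32% with higher groups, and its fitted log2 fold change was -0.52 ± 0.15 (SE, edgeR adjusted p = 0.0791).

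Cox6c (chromosome 15, 35855641 to 35868001) had 1165, 1345, 1065, 1275 and 1005 TPM on HFD, most of them below the LFD values given above. Its fitted log2 fold change was -0.56 ± 0.17 (SE, edgeR adjusted p = 0.0797). Uqcrh (chromosome 4, 115739570 to 115747676), whose promoter is printed above, had 247.0, 285.1, 347.7, 590.2 and 322.8 TPM on LFD and 343.8, 262.6, 290.6, 202.8 and 178.6 TPM on HFD. The groups overlapped widely, and the fitted log2 fold change was -0.62 ± 0.19 (SE, edgeR adjusted p = 0.0857).

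The falls were sensitive to the scale and to single libraries. On the TPM scale, 58 of 80 members were lower on HFD with a median log2 ratio of -0.12, while the median of all genes was 0.16, and limma on log2(TPM + 1) called only Cox4i2 of the members. Among all genes, limma split its calls into 1791 higher and 348 lower, where edgeR gave 676 and 751. The share of TPM from the mitochondrial genome was lower on HFD, which by itself raises the TPM of all other genes, by 0.16 on the log2 scale in control and 0.14 in Ad-Tmem120a-/- mice. The number of members called was 10 without control LFD replicate 1 (beside 1845 of 15306 genes) and 1 without replicate 3 (873 of 15312). It was 3 without replicate 4 (1507 of 15287) and 0 without replicate 5 (868 of 15229). It was 1, 0, 2 and 0 without control HFD replicates 12, 13, 14 and 15, where 780, 827, 1273 and 967 of all genes were called. Without control LFD replicate 4 the median change was -0.13, with 58 of 80 members lower.

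In Ad-Tmem120a-/- iWAT on HFD 2 subunit genes rose and 0 fell. These were Cox4i2 and Ndufs5, against 4.55% of all 15705 genes called higher, 4.85% called lower and 9.4% called in all. The summed level was 13665 ± 1221 TPM (SD, n = 5) on HFD and 11879 ± 2046 TPM on LFD. Fitted levels were higher for 52 of 80 members and lower for 28, with a median log2 fold change of 0.06 against 0.00 over all genes. The split depended on single libraries, with 71 of 80 higher and a median of 0.22 without Ad-Tmem120a-/- LFD replicate 7, and 50 lower and a median of -0.05 without Ad-Tmem120a-/- HFD replicate 17.

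Cox4i2 had 2.47, 5.30, 3.09, 3.795 and 3.65 TPM in Ad-Tmem120a-/- LFD libraries and 9.88, 7.67, 10.1, 8.66 and 11.95 TPM in Ad-Tmem120a-/- HFD libraries. Every HFD value lay above every LFD value. The fitted log2 fold change was 1.23 ± 0.27 (SE, edgeR adjusted p = 0.0252), and the exact permutation p of 0.00794 (two-sided) was the smallest that 5 against 5 can give. The call held without each of the 10 libraries and under all 10 other fits. Cox4i2 rose on HFD in both genotypes and took up a larger share of the 2 subunit 4 isoforms, 2.72% ± 0.802 (SD, n = 5) in control and 2.96% ± 0.509 in Ad-Tmem120a-/- HFD libraries, against 1.08% ± 0.423 and 1.48% ± 0.626 on LFD. Its paralogue Cox4i1 gave fitted log2 fold changes of -0.30 ± 0.25 (SE, edgeR adjusted p = 0.558) in control and 0.16 ± 0.23 (adjusted p = 0.775) in Ad-Tmem120a-/- mice.

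**Figure D3:**
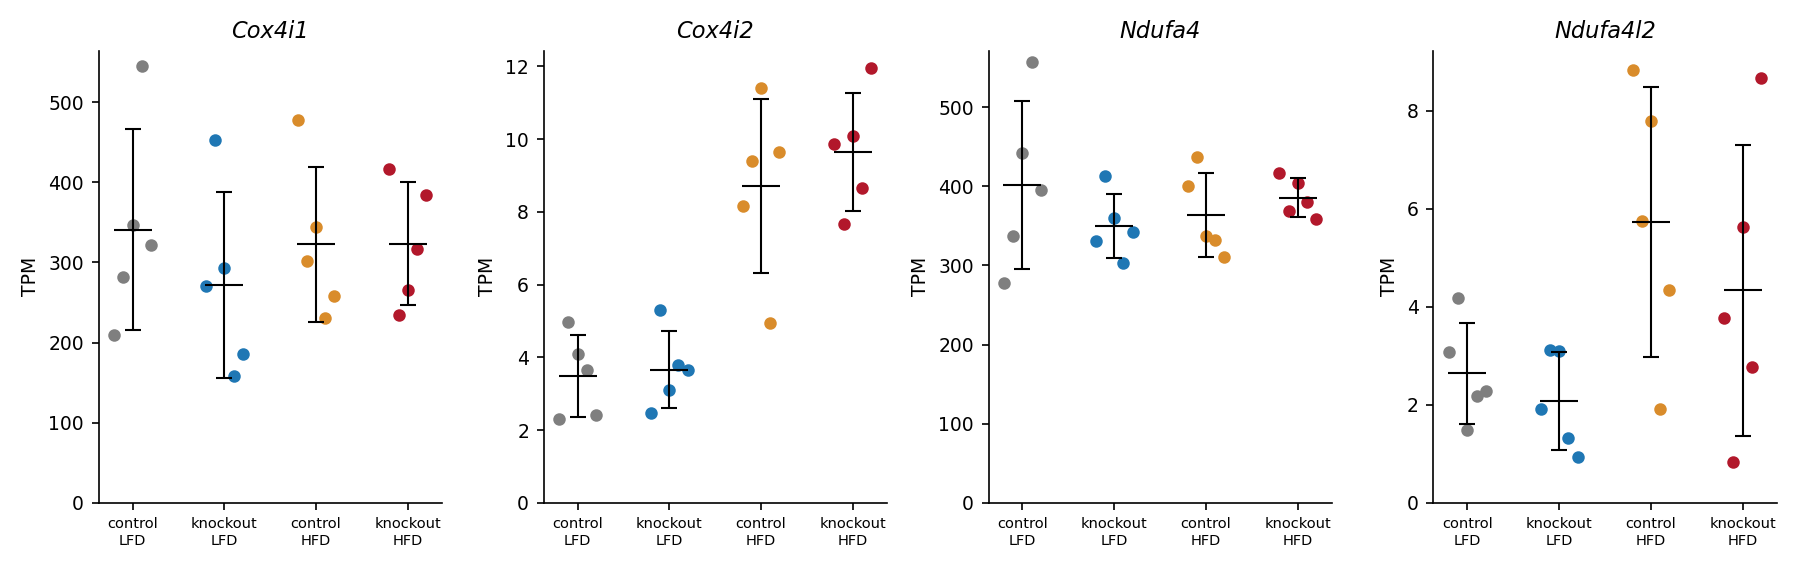
TPM of Cox4i1, Cox4i2, Ndufa4 and Ndufa4l2 in each library of the 4 groups, with the mean and SD as bars. The HFD means of Cox4i2 (8.71 and 9.65 TPM) lie above its LFD means (3.49 and 3.66 TPM), and Cox4i1 and Ndufa4 show no such step.

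Ndufs5 (chromosome 4, 123389953 to 123395445) had 325.7, 376.2, 367.0, 500.4 and 409.5 TPM on LFD and 591.8, 544.9, 613.2, 596.2 and 525.8 TPM on HFD in Ad-Tmem120a-/- libraries. The groups did not overlap, and the fitted log2 fold change was 0.54 ± 0.16 (SE, edgeR adjusted p = 0.0696). The call was lost without any 1 of 9 of the 10 libraries, where adjusted p lay between 0.102 and 0.187, and without Ad-Tmem120a-/- LFD replicate 9 it was 0.0105. In control mice Ndufs5 had 534.6, 414.2, 441.6, 306.8 and 495.7 TPM on LFD and 506.1, 494.7, 555.2, 537.7 and 539.5 TPM on HFD, with a fitted log2 fold change of 0.09 ± 0.12 (SE, edgeR adjusted p = 0.754).

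Atp5f1 was the third member whose diet groups did not overlap in Ad-Tmem120a-/- mice, against 5.01% of genes with higher and 2.94% with lower groups. It had 202.6, 254.5, 192.6, 232.5 and 204.6 TPM on LFD and 295.8, 273.0, 289.4, 283.9 and 263.8 TPM on HFD. The edgeR test did not call it (log2 fold change 0.23 ± 0.12 SE, adjusted p = 0.304), and limma on log2(TPM + 1) did (adjusted p = 0.0741). Ndufa4l2 had means of 2.64 ± 1.02 TPM (SD, n = 5) on LFD and 5.73 ± 2.75 on HFD in control, and 2.08 ± 1.01 and 4.34 ± 2.98 in Ad-Tmem120a-/- mice. Its fitted log2 fold changes of 0.92 ± 0.35 (SE, edgeR adjusted p = 0.161) and 0.98 ± 0.51 (adjusted p = 0.319) were not called, and its lowest HFD value, 0.828 TPM, lay below all LFD values.

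The test of whether the genotype effect differed between diets called 0 of 80 members and 0% of 15574 genes by edgeR. DESeq2 called 0 members, beside 17 of all genes. At an unadjusted p under 0.05 in edgeR, 6 members, Atp5f1, Ndufa6, Ndufs1, Ndufs5, Uqcrc2 and Cox7b, passed, against 3.6% of all genes. The count at an unadjusted p under 0.05 was 16 without Ad-Tmem120a-/- LFD replicate 7 (beside 632 of 15466 genes). It was 15 and 13 without control LFD replicates 1 and 2 (572 of 15585 and 592 of 15563), and 14 without control HFD replicate 11 (609 of 15581). It was 11 and 10 without Ad-Tmem120a-/- HFD replicates 21 and 18 (724 of 15577 and 581 of 15563), and 14 with the 7SK covariate (970 of 15574). It was 1 without control LFD replicate 3 or 4, Ad-Tmem120a-/- LFD replicate 6 or 8, or Ad-Tmem120a-/- HFD replicate 17. It was 2 without control HFD replicate 13 or 15, and 3 without control HFD replicate 12 or 14 or Ad-Tmem120a-/- HFD replicate 20. Without each of the other libraries it was 4 or more. In these fits with lower counts, between 438 and 597 genes passed. The fitted difference was positive for 79 of 80 members, with a median of 0.41 against 0.01 over all genes. Without control LFD replicate 4 it was positive for 65, with a median of 0.18. With the 7SK covariate it was positive for 71, with a median of 0.27. In the main fit the difference was also positive for all 15 muscle fibre markers (median 5.95) and all 8 brown and beige markers (median 1.92). It was negative for 8 of 10 lymphocyte markers (median -0.35), and 0 markers of these lists were called. The genotype comparison on LFD, the diet comparison in control mice and this difference all share the control LFD libraries and are not separate evidence. The members also vary together from library to library, as given below, so their agreement in direction is not 80 separate results. Cox4i2 gave a difference of 0.11 ± 0.37 (SE, edgeR adjusted p = 0.9999) and Ndufs5 of 0.43 ± 0.20 (adjusted p = 0.9999), so the rise of Ndufs5 was not shown to depend on genotype.

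Complex II, which has no subunit in the mitochondrial genome, was the smallest sum. It was 376.3 ± 60.6 TPM (SD, n = 5) in control LFD, 341.3 ± 53.8 in Ad-Tmem120a-/- LFD, 327.5 ± 59.4 in control HFD and 377.9 ± 43.7 in Ad-Tmem120a-/- HFD libraries. Sdha had 195.0, 178.8, 167.1, 146.3 and 138.4 TPM in control HFD and 220.0, 245.2, 226.6, 199.6 and 188.0 TPM in Ad-Tmem120a-/- HFD libraries, with 1 Ad-Tmem120a-/- value below the highest control. Its exact permutation p on log2(TPM + 1) was 0.0159 (two-sided), and the edgeR fit on counts gave a log2 fold change of 0.16 ± 0.15 (SE, adjusted p = 0.999). In the same comparison Sdhb gave 0.19 ± 0.25, Sdhc -0.02 ± 0.18 and Sdhd -0.02 ± 0.22.

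Within each group the subunit genes went up and down together from library to library. In control LFD 66 of the 80 members had their highest value in replicate 4, in Ad-Tmem120a-/- LFD 72 in replicate 7, in control HFD 60 in replicate 11 and in Ad-Tmem120a-/- HFD 49 in replicate 17. For 41 members the maximum was in that library in all 4 groups. The exceptions that never had it there were Uqcrb, Ndufs5, Ndufb4, Ndufc1, Cox7a2l and Atp5s. Over all 20 libraries the highest value of a member was between 1.45 times the lowest, for Ndufs1, and 11.7 times, for Uqcr11, with a median of 2.94, and 18 members exceeded 4 times. Uqcr11, a small complex III subunit, was named after its values were seen.

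**Figure D4:**
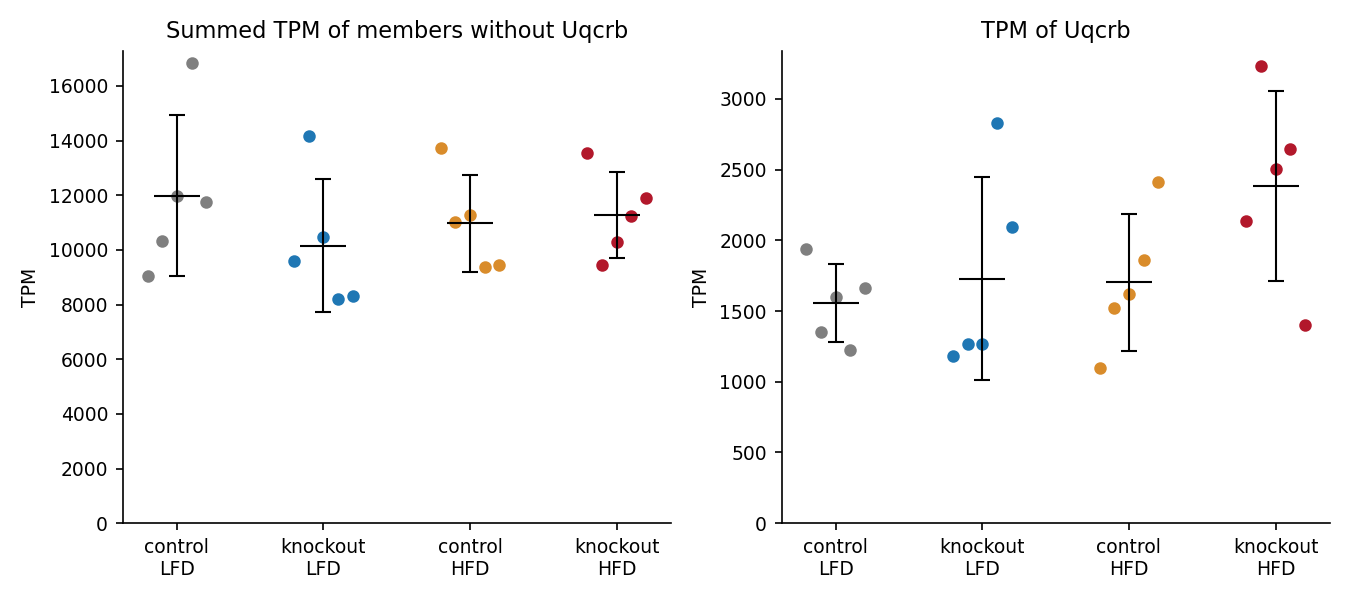
Summed TPM of the members without Uqcrb (left) and TPM of Uqcrb (right) in each library of the 4 groups, with mean and SD. The sum without Uqcrb reaches 16833 TPM in control LFD replicate 4, where Uqcrb is at 1227 TPM, the lowest of its group.

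The same 4 libraries stood apart in other RNAs. 7SK RNA, a small nuclear RNA that restrains transcription elongation, was summed over its gene copies after the member sums were seen. It held 19.8% of all TPM in control LFD replicate 4, 18.1% in Ad-Tmem120a-/- LFD replicate 7, 14.3% in control HFD replicate 11 and 14.1% in Ad-Tmem120a-/- HFD replicate 17, the highest value of each group. Across libraries 7SK ranged 3.10-fold, from 64059 to 198448 TPM. In 3 of the 4 groups, the library with the lowest 7SK level also had the lowest sum of members without Uqcrb. Uqcrb was highest in the library with the lowest 7SK level in all 4 groups. Brown and beige adipocyte markers, summed over 8 genes, were also highest in these libraries of each group, at 785.3, 510.7, 253.6 and 805.8 TPM. The 8 genes include Cox7a1 and Cox8b, complex IV forms kept out of the set, so this sum is itself partly respiratory chain RNA. In control LFD libraries the highest values of Cox7a1 and Cox8b were 137.1 and 484.6 TPM, against 132.9 for Ucp1. The sum is therefore not a separate measure of brown or beige cells. The part of RNA composition and of brown or beige cells in the shared variation was not tested. With the log2 7SK level as a covariate, added after the data were seen, edgeR called 0 members between genotypes on either diet. Beside them 2 of 15228 genes were called on HFD and 3 of 15717 on LFD. Between diets it called 15 members in control (1 higher, 14 lower), beside 3125 of 15311 genes. In Ad-Tmem120a-/- mice it called 4 members (all higher), beside 3258 of 15705 genes. The median change of the members between diets in control was then -0.20, with 65 of 80 lower, in place of -0.36.

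**Figure D5:**
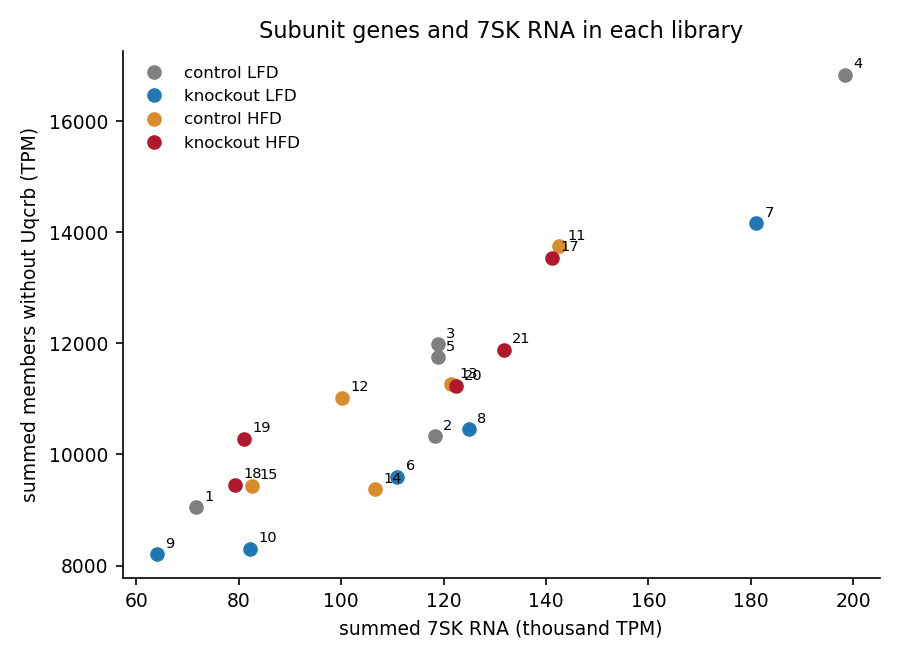
Summed TPM of the members without Uqcrb against summed 7SK TPM for each of 20 libraries, with colours for groups and numbers for replicates. Control LFD replicate 4 is highest on both axes (16833 and 198448 TPM), and libraries with more 7SK mostly have a higher member sum in every group.

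The subunits encoded by the mitochondrial genome were lower on HFD in both genotypes, and they were not tested against the nuclear ones. On HFD all 12 protein-coding mitochondrial genes tested had lower fitted levels in each genotype, with 8 called lower in control and 5 (mt-Nd2, mt-Nd4, mt-Nd5, mt-Atp6 and mt-Atp8) in Ad-Tmem120a-/- mice and 0 called higher by edgeR. Their median log2 fold changes were -0.98 and -0.70. They exceeded the summed nuclear subunits 16.5 ± 4.83 times in TPM (SD, n = 5) in control LFD, 18.8 ± 4.398 in Ad-Tmem120a-/- LFD, 11.3 ± 2.54 in control HFD and 11.2 ± 2.42 in Ad-Tmem120a-/- HFD libraries. Between genotypes 0 of the 12 were called on either diet.

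Other genes of the pathway were counted by list, beside 9.32% of all genes called between diets in control mice and 9.4% in Ad-Tmem120a-/- mice. Of 27 assembly factors 0 were called in any comparison, with 22 lower in Ad-Tmem120a-/- mice on LFD. Of 13 citrate cycle enzymes all 13 had lower fitted levels in Ad-Tmem120a-/- mice on LFD, with 0 called, and all 13 on HFD in control mice, with 1 called, the dehydrogenase subunit Idh3b (-0.63 ± 0.15 SE, edgeR adjusted p = 0.0340). Of 8 electron carriers, adenine nucleotide carriers and the ATPase inhibitor, 8 were lower in Ad-Tmem120a-/- mice on LFD, with 0 called, and 1, cytochrome c (Cycs, -0.46 ± 0.14 SE, edgeR adjusted p = 0.0758), was called lower on HFD in control. Of 14 genes for import, structure and pores of mitochondria 0 were called in any comparison. Of 13 regulators of mitochondrial genes, 4 were called lower on HFD in control (against 4.9% of all genes), namely the coactivators Ppargc1a (-0.76 ± 0.15 SE, edgeR adjusted p = 0.0151), Ppargc1b (-1.11 ± 0.30, adjusted p = 0.0569) and Pprc1 (-0.96 ± 0.17, adjusted p = 0.00913) and the mitochondrial transcription factor Tfb2m (-0.33 ± 0.10, adjusted p = 0.0915). In Ad-Tmem120a-/- mice Ppargc1b (-1.17 ± 0.31 SE, edgeR adjusted p = 0.0463) and Pprc1 (-1.01 ± 0.25, adjusted p = 0.0347) were called lower, against 4.85% of all genes.

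Markers of other tissues and cell types differed between libraries. The paper proposes that loss of Tmem120a relieves repression of muscle genes in fat, and the source of the muscle RNA in these libraries was not tested. Markers of muscle fibres, summed over 15 genes, were at 4245 TPM in control LFD replicate 5 and between 73.1 and 355.8 in the other control LFD libraries. They lay between 70.2 and 1300 in Ad-Tmem120a-/- LFD, between 47.3 and 128.7 in control HFD and between 120.3 and 1907 in Ad-Tmem120a-/- HFD libraries. 2 of the 15 fibre genes, Myh2 and Cox6a2, were at 0 in at least 1 library. On HFD in control mice 10 of the 15 were called lower. Without control LFD replicate 5 the median change of the members was -0.40, with 0 called beside 868 of 15229 genes. The brown and beige marker sum lay between 105 and 785.3 TPM in control LFD, 66.7 and 510.7 in Ad-Tmem120a-/- LFD, 67.6 and 253.6 in control HFD and 97.2 and 805.8 in Ad-Tmem120a-/- HFD libraries. Of the 8 genes 3 (Cidea, Elovl3 and Cox7a1) were called lower on HFD in control and 0 in Ad-Tmem120a-/- mice, and 1, Elovl3, was at 0 in a control HFD library. The isoforms Cox6a2, Cox7a1 and Cox8b, kept out of the set, had 1 gene called lower on HFD in control, Cox7a1 (-1.94 ± 0.48 SE, edgeR adjusted p = 0.0409). Markers of macrophages, lymphocytes, epithelium and endothelium gave 0 calls between genotypes and at most 1 call per list between diets. Endothelial sums were 1.51 and 1.41 times higher on HFD in control and Ad-Tmem120a-/- mice, with all 5 genes higher in each. White adipocyte sums were 1.29 and 1.47 times higher, with every HFD library above every LFD library. Of the 13 white adipocyte genes, 9 and 10 had higher fitted levels. The part of muscle, brown or beige, white adipocyte and endothelial cells in the diet and genotype shifts of the subunit genes was not tested.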

How the data were processed

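RNA of iWAT was ribosomal RNA depleted, prepared with a stranded total RNA kit and sequenced as paired reads. The authors quantified it with Salmon 0.13.1 on Ensembl transcripts of NCBIM37 (mm9), coding and non-coding, and also aligned reads with STAR 2.5.3. The deposited estimated counts carry no normalisation between libraries, and the deposited TPM values are scaled to a fixed total per library, so a change in abundant RNAs moves all others.

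Transcripts were summed per gene with GENCODE vM1, which held 94334 of 96533. Rounded counts were tested, above a minimum mean of 0.5 TPM in the compared libraries, with edgeR 4.0.16 (quasi-likelihood, TMM scaling), and an adjusted p under 0.1 (Benjamini-Hochberg over all genes tested) was a call. Single genes were also compared on log2(TPM + 1) with exact permutation tests over 252 assignments. Sums over members were given without a test. DESeq2 1.42.0, limma 3.58.1, length offsets, other scalings and filters and leaving out each library were alternatives. Copies were searched with blastn 2.17.0. Fits were tested on simulated data.

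Genes named are those called (up to 12 per comparison), those whose groups do not overlap (up to 5), the highest and lowest of each complex, complex II, isoform families, genes under 0.5 TPM and catalytic core subunits. The members and lists were chosen with earlier results of these data known. The gene lists come from general knowledge, and 5 of their symbols were not found in the annotation. Depth lay between 54605101 and 92387737 estimated counts per library.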

Additional observations from a re-analysis of the deposited data

Results flagged for a closer look

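In groups of 5 libraries, the highest or lowest value of a sum or named gene was set against the others (136 groups over 34 measures, of which chance flags about 1 in 20), and 8 values stood far from the rest of their group. In Ad-Tmem120a-/- LFD replicate 7 the summed members had 15435 TPM, against 10404 to 11726 in the other libraries, and Uqcrh had 489.1 TPM against 201.2 to 284.2. In control LFD replicate 4 the c-ring gene Atp5g2 had 207.5 TPM against 27.6 to 75.3, Atp5g3 177.6 TPM against 79.1 to 107.5, and Cox8a 553 TPM against 118.8 to 235.2. In control HFD replicate 11 Atp5g1 had 37.5 TPM against 18.1 to 22.2. In Ad-Tmem120a-/- HFD replicate 17 the complex II sum was 453.4 TPM against 347.4 to 376.2. These 7 high values fell in the 4 libraries with the most 7SK RNA of their groups. The only low one was Cox7a2 in Ad-Tmem120a-/- HFD replicate 18, at 82.3 TPM against 123.5 to 131.4.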

How the results depend on the processing

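No paired analysis was possible because the replicate numbers of the 4 groups are all different. Between genotypes and in the diet-by-genotype test, 0 members were called under every alternative and without any library. In the diet comparison of control mice the 5 member calls became 10 with DESeq2, 8 with DESeq2 and length offsets, 1 with limma on log2(TPM + 1) or log2(TPM + 0.1), 1 with no filter on low values, 15 with the 7SK covariate, and 0 to 10 without single libraries. In Ad-Tmem120a-/- mice the 2 diet calls became 1 with edgeR length offsets, 4 with the 7SK covariate, and 1 to 2 without single libraries. Over all genes, the call between genotypes on HFD (1 gene) became 100 with DESeq2, 106 with its length offsets, 5 with edgeR length offsets, 3 and 4 with limma (pseudocounts 1 and 0.1), 26 without a filter, 0 with a filter at 2 TPM, 2 with the covariate, and 1 to 58 without single libraries. On LFD (1 gene) it became 17 with DESeq2, 18 with its length offsets, 2 with limma under both pseudocounts, with upper quartile factors and with the filter at 2 TPM, 3 with the covariate, and 1 to 2 without single libraries. In the diet comparison of control mice, 1427 genes became 2205 with DESeq2, 2148 with limma on log2(TPM + 0.1), 3125 with the covariate, and 780 to 1845 without single libraries. In Ad-Tmem120a-/- mice 1476 became 2247 with DESeq2, 3258 with the covariate, and 753 to 1355 without single libraries. The diet-by-genotype test called 17 genes with DESeq2 and 18 with its length offsets in place of 0. The cause was not tested.

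Of 320 alternative values of sums, 9 moved by more than the spread between libraries, all in complex III. Its log2 ratio between genotypes on HFD went from 0.36 to -0.0053 as the median over members and 0.0382 without Uqcrb, and on LFD from -0.01 to -0.30 and -0.31. Between diets it went in control from -0.05 to -0.29 and -0.36, and to -0.24 with TMM factors, and in Ad-Tmem120a-/- mice from 0.32 to -0.0148 and -0.0123. Uqcrb made up most of this sum and did not move with the other members.

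Of the called genes, Cox4i2 was called under 10 of 10 other fits in each genotype, Ndufs5 under 9, Ndufs1, Ndufa6 and Cox6c under 7 and Uqcrh under 6. Without single libraries in control, calls were kept in 6 of 10 fits for Cox4i2, 5 for Ndufs1, 3 for Ndufa6, 2 for Cox6c and 3 for Uqcrh. Atp5f1 gained a call with limma under both pseudocounts, and Ndufa4l2 in control with DESeq2 and without control HFD replicate 14. With no filter on low values, 82 or 83 members could be tested per comparison in place of 80. Cox7b2 and Cox8c had no value above 0 to compare.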
